A study of Homo sapiens with 18 samples.

Results

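Genes of xenobiotic handling were followed, namely AHR, TIPARP, CYP1B1, CYP19A1, CES1, SLCO2B1, ABCC1, ABCC2, ABCC3 and ABCB6, which are 10 of the 38716 gene symbols listed in the deposited tables. They were chosen by name, after their levels in cells treated with inflachromene (ICM) had been seen, so their differences between ICM and the other cells are given as descriptions, with no test. The cells were IMR90 fibroblasts, which come from human fetal lung and divide a limited number of times in culture, and ICM is an inhibitor that targets HMGB1 and HMGB2, abundant non-histone proteins of chromatin. Ribosome profiling (Ribo-seq, a readout of the short mRNA stretches covered by translating ribosomes) and mRNA-seq gave 18 libraries in 6 groups of 3 replicates. Young cells were low-passage proliferating cells, old cells were high-passage replicatively senescent cells, and ICM cells were low-passage cells given the compound, of which the labels state neither the dose nor the duration. No genotype was altered in any group, all of which were the same line.

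Cells meet foreign compounds with sensors, enzymes and transporters. The aryl hydrocarbon receptor, AHR, is a transcription factor that planar aromatic compounds activate, and with its partner ARNT it binds DNA elements with the core GCGTG and turns on genes such as CYP1A1 and CYP1B1, while TIPARP and AHRR, themselves targets, act back on it as repressors. Phase 1 enzymes (cytochromes P450 and esterases) oxidise or cleave a compound, phase 2 enzymes conjugate it, and transporters of the SLCO and ABC families carry compounds and conjugates into and out of the cell.

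Promoter sequence was read to show where such elements could stand. RefSeq windows of 300 bases (GRCh38.p14, 250 before to 50 after a start) were at hand for 6 of the genes, with 15 starts among them. The other 4, CYP1B1, CES1, ABCC1 and ABCC3, had no window and were not searched. GCGTG, searched on both strands, stood in 1 TIPARP window, at 2 sites, and in the AHR window, and 36.5% of 35116 RefSeq promoter windows hold it. The antioxidant response element core TGACNNNGC, which the NRF2 factor binds, stood in the ABCB6 window and in 13.3% of all windows, and the longer TNGCGTG, which contains GCGTG, stood in none of the 15 and in 5.51% of all. Capitals mark the match. In TIPARP GCGTG lies on the opposite strand, so that the printed strand reads CACGC. The TIPARP sites lie 208 and 142 bases before the start (chr3:156674370-156674399 and chr3:156674436-156674465, plus strand), the AHR site 37 bases after it (chr7:17298672-17298701, plus strand) and the ABCB6 site 152 bases before it (chr2:219219091-219219120, minus strand). These are matches of letters, not measured binding sites.
TIPARP site 1: cgcgagaaaggaCACGCcccctcgcgggag
TIPARP site 2: cgaacgaacgcgCACGCgcgcgcagggggc
AHR: gacgctctgttccgagaGCGTGccccggac
ABCB6: cctgggcacgTGACCAAGCcggctctgctt

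Before the genes are described, the libraries need a word. Values are read counts scaled to the library (CPM, per 1e6 reads), over the coding-gene reads of a library (5′ UTR, CDS and 3′ UTR) in mRNA-seq and over its CDS reads in Ribo-seq. The mRNA-seq libraries held 7902427 to 14144455 such reads, but the Ribo-seq libraries only 46239 to 1718521, so that 1 footprint was worth 21.6 CPM in ICM replicate 3, the shallowest. Young replicate 1 and old replicate 2 stood apart in Ribo-seq, with 34.4% and 15.0% of reads in the CDS against 54.7% to 88.8% in the other libraries. All 10 fibroblast marker genes were above 1 CPM in mRNA-seq in each condition, and their summed level was 29560 to 33340 CPM in young, 26110 to 29360 in old and 12730 to 13030 in ICM. COL1A1 weighed most in it, at 13528 to 15584 CPM in young and 3019 to 3347 in ICM. All the others were lower in ICM than in young too, except DCN and LUM. DCN was at 1401 to 1461 CPM in young and 1534 to 1775 in ICM, and LUM at 144 to 151 and 143 to 155. Of 5 hepatocyte markers, the cell type best known for these enzymes, none reached 1 CPM, with a sum of at most 0.354 CPM in any library. Summed immune markers, of which 1 of 5 (CD68) passed 1 CPM in each condition, were 20.1 to 22.4 CPM in young, 31.5 to 34.3 in old and 57.0 to 68.0 in ICM. CD68 made up nearly all of this, at 19.6 to 21.8 CPM in young and 55.5 to 66.5 in ICM. Epithelial markers, of which 2 or 3 of 7 passed 1 CPM, summed to 315 to 340 CPM in young, 231 to 252 in old and 45.5 to 52.4 in ICM, and endothelial markers, of which 1 or 2 of 5 passed, to 56.4 to 64.5, 89.4 to 102 and 53.9 to 61.5. KRT18 made up most of the epithelial sum, at 269 to 290 CPM in young and 27.9 to 34.3 in ICM, and TEK most of the endothelial sum. Since these sums rest mostly on few genes, they do not measure the numbers of cells of a type. The part of these shifts in the results was not tested, and fewer cells of a type and less RNA per cell cannot be told apart in such bulk samples.

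The receptor came first. AHR (chromosome 7, 16955983 to 17385776 in GRCh37, plus strand) was at 26.6, 32.1 and 29.8 CPM in the young mRNA-seq libraries, at 23.8, 24.6 and 27.7 in the old and at 80.1, 88.1 and 87.7 in the ICM libraries. Every ICM library lay above every young and old library, while young and old overlapped. The fitted log2 change was 1.50 (SE 0.08) in ICM against young and 1.63 (SE 0.08) against old. Between old and young it was -0.13 (SE 0.09), which did not pass the test (edgeR, Benjamini-Hochberg adjusted p = 0.208).

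AHR footprints did fall in old cells. They were at 91.9, 74.4 and 100.1 CPM in young, at 44.8, 36.6 and 51.4 in old and at 169, 304 and 195 in ICM, so that the 3 conditions did not overlap. The old against young log2 change in Ribo-seq was -0.82 (SE 0.26, edgeR adjusted p = 0.0135), but the call was lost with DESeq2 (adjusted p = 0.202), with a replicate block (0.245), and without young replicate 2 (0.0636), young replicate 3 (0.316) or old replicate 1 (0.172). The change relative to mRNA, called translational efficiency (TE), was -0.63 (SE 0.30, adjusted p = 0.377). AHR carried more footprints than its share of mRNA CDS reads would give, 3.03 times as many in young (95% Poisson interval 2.65 to 3.45), 1.77 in old (1.45 to 2.14) and 2.36 in ICM (1.84 to 2.97). All such intervals cover counting error only.

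TIPARP, the mono-ADP-ribosyltransferase that AHR induces and that modifies AHR in turn, was the one gene of the 10 that did not stand out in ICM cells. Its mRNA was at 66.6, 53.5 and 58.1 CPM in young, at 62.6, 69.7 and 66.6 in old and at 67.7, 61.1 and 74.6 in ICM, and all 3 conditions overlapped. The ICM against young change was 0.17 (SE 0.08) and the ICM against old change -0.09 (SE 0.08) on the log2 scale. Old cells were higher than young by 0.26 (SE 0.08, edgeR adjusted p = 0.00657), a call lost without young replicate 2 (log2 change 0.19, adjusted p = 0.0664). Its footprints were at 0, 48.2 and 53.0 CPM in young, at 54.4, 73.1 and 53.1 in old and at 44.4, 38.0 and 21.6 in ICM, where 14 reads were counted in all. The ICM libraries lay below every old library but not below young replicate 1, in which no footprint was seen.

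**Figure D1:**
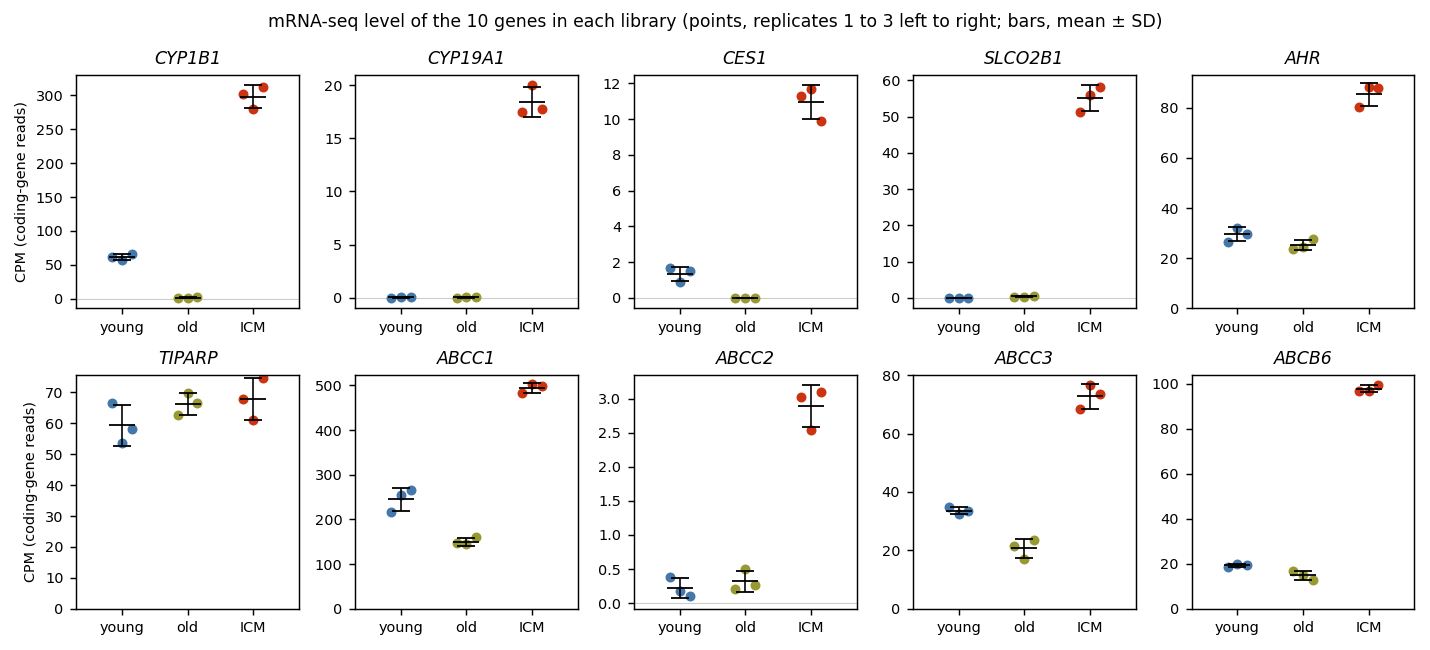
mRNA-seq level (CPM of coding-gene reads, linear axes from about 0) of each gene in the 3 young, 3 old and 3 ICM libraries, with mean ± SD. ICM libraries lie above all others in 9 of the 10 panels, and TIPARP, at 53.5 to 74.6 CPM throughout, is the exception.

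Among the oxidising enzymes, CYP1B1, which hydroxylates oestradiol and polycyclic hydrocarbons and is a classical AHR target, had the widest span between senescent and ICM cells of the genes measurable in both assays. Its mRNA (chromosome 2, 38294116 to 38337044 in GRCh37, minus strand) was at 62.1, 56.6 and 65.2 CPM in young, at 1.52, 1.27 and 1.77 in old and at 302, 279 and 313 in ICM. The 3 conditions were far apart, with old lowest and ICM highest. The antisense gene CYP1B1-AS1, whose reads cannot be told apart from those of CYP1B1 where the counting of strands is not stated, was listed with 3, 0 and 12 reads in young, old and ICM. The fitted change was 2.26 (SE 0.07) in ICM against young and 7.50 (SE 0.11) in ICM against old. Old cells held 37.9-fold less than young, a fitted difference of -5.24 on the log2 scale (SE 0.13, edgeR adjusted p = 4.37e-19).

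CYP1B1 footprints followed, with a noisier old group. They were at 129, 67.1 and 68.1 CPM in young (7, 46 and 117 reads), at 4.78, 91.4 and 8.56 in old (8, 5 and 5 reads) and at 507, 595 and 389 in ICM (114, 47 and 18 reads). ICM lay above both other conditions, and old overlapped young through old replicate 2, the library with the low CDS share, whose value rests on 5 reads. The old against young log2 change was -2.96 (SE 0.43, edgeR adjusted p = 1.72e-06), but it was not called with DESeq2 (-1.86, adjusted p = 0.256) or with Ribo-seq thinned to the depth of the shallowest library (-1.56, adjusted p = 0.142). The ICM against young change was 2.84 (SE 0.29), and the TE change 0.60 (SE 0.30). With thinned Ribo-seq they were 1.98 and -0.25, so that the TE change turned sign.

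In old cells the CYP1B1 footprints counted were above the number that its mRNA would give, on few reads of both kinds. There were 18 footprints where the share of its 19 mRNA CDS reads gives 2.36, a ratio of 7.62 (95% Poisson interval 4.51 to 12.0, which leaves out the error of those 19 reads), against 1.80 in young (1.54 to 2.09) and 2.603 in ICM (2.23 to 3.01). The median gene had a ratio of 0.865 in old, 0.897 in young and 0.881 in ICM. By replicate the old ratios were 3.73, 88.9 and 30.3, all above the young range of 1.75 to 3.30. They rest on 8, 5 and 5 footprints and on 8, 9 and 2 mRNA CDS reads. The fitted TE change in old against young was 2.43 (SE 0.67), with an adjusted p of 0.0599 (edgeR). It passed 0.05 without young replicate 1 (0.0253) and without ICM replicate 1 (0.0132), 2 (0.0162) or 3 (0.0197), and with other settings listed further on. No call was made with DESeq2, RLE scaling, mRNA CDS reads alone or thinned Ribo-seq. Nor was it called without young replicate 2, without young replicate 3 or without any 1 of the old replicates.

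CYP19A1, the aromatase that makes oestrogens from androgens, was almost silent outside ICM cells. Its mRNA (chromosome 15, 51500254 to 51630798, minus strand) was at 0, 0.0881 and 0.0968 CPM in young and at 0, 0.0707 and 0.0886 in old, from 2 reads in each group, and at 17.5, 19.99 and 17.7 CPM in ICM, from 637 reads. The pooled ICM to young ratio was 271, with a counting interval of 74.8 to 2245. No old against young difference was detectable at this depth. Of the ICM reads, 61.9% lay in the CDS and 1.26% in the 5′ UTR. CYP19A1 footprints were 0 in every library but ICM replicate 2, which had 3, where 6.26 footprints in all ICM libraries would match the mRNA share.

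CES1, the carboxylesterase that cleaves ester drugs and is otherwise best known from liver, was at 1.65, 0.896 and 1.52 CPM of mRNA in young, at 0 in all 3 old libraries and at 11.3, 11.7 and 9.90 in ICM. The conditions did not overlap. ICM exceeded young by 3.02 on the log2 scale (SE 0.20). Against old, where no read was seen, ICM was at least 129-fold higher, and old was at least 15.5-fold lower than young, taking a floor of 3 reads over the group. CES1 passed the filter on low counts only through the ICM libraries, so no p is given for old against young. CES1 (chromosome 16, 55836763 to 55867249, minus strand) shares reads with near-identical pseudogenes, CES1P1 and CES1P2, which held 125 and 46.7 estimated reads beside its 381 in ICM, 11.5 and 4.33 beside 38.8 in young, and 0 in old. Its footprints totalled 5.33 estimated reads in young, 0.833 in old and 4.83 in ICM, too few to compare.

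Uptake was represented by SLCO2B1, an organic anion transporter of the plasma membrane that carries steroid sulphates and several drugs. Its mRNA (chromosome 11, 74811608 to 74917594, plus strand) was at 0 in all 3 young libraries, at 0.304, 0.283 and 0.531 CPM in old (13 reads) and at 51.3, 55.8 and 58.3 CPM in ICM (1908 reads). No group overlapped another. ICM was at least 542-fold above young with a floor of 3 reads over the group, and 149-fold above old (counting interval 87.0 to 281). Old was at least 3.63-fold above young, on 13 reads against 0, and no p is given, since SLCO2B1 passed the filter on low counts only through the ICM libraries.

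No SLCO2B1 footprint was counted in any of the 9 Ribo-seq libraries. In ICM cells, 17.9 footprints would match its share of mRNA CDS reads. A count of 0 allows up to 3, that is a ratio of up to 0.168 (0.207 by the exact Poisson bound). Among 1407 other genes for which 14.3 to 22.3 footprints would match the mRNA share, 25 genes (1.78%) also had 0, and the median was 15. Its mRNA reads in ICM lay in the CDS (61.3%) and 3′ UTR (38.7%), with 1 read in the 5′ UTR. The bars of counted and mRNA-matched footprints show SLCO2B1 as the one gene of the 10 without any.

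**Figure D2:**
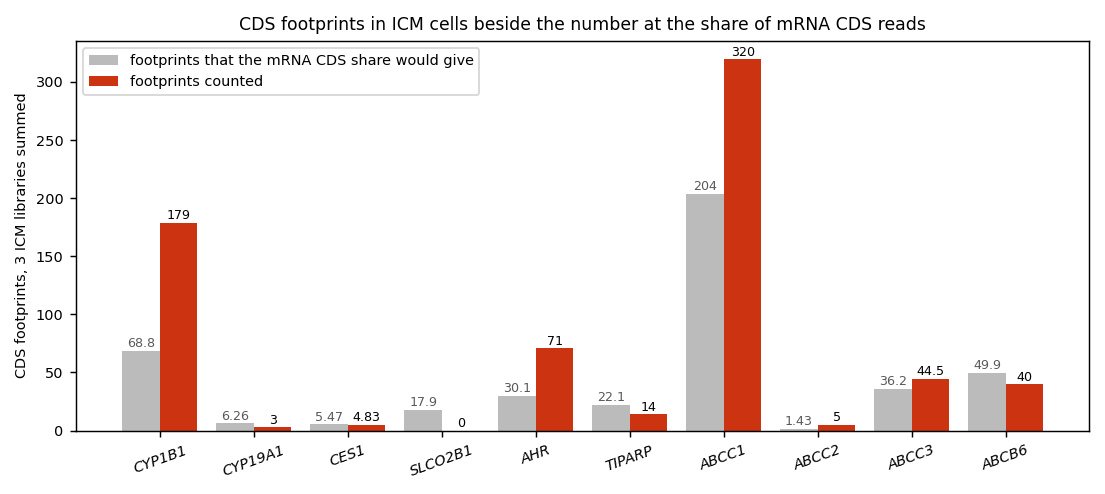
CDS footprints counted in the 3 ICM libraries together (red) beside the number that each gene's share of mRNA-seq CDS reads would give (grey), in reads. CYP1B1 (179 against 68.8), AHR (71 against 30.1) and ABCC1 (320 against 204) lie above their mRNA share, and SLCO2B1 has 0 against 17.9.

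Efflux was represented by 4 ABC transporters. ABCC1 (MRP1), which exports glutathione conjugates and leukotriene C4, was the most abundant per coding length in each condition, at 61.4 ± 8.74 (SD, n = 3) mRNA CDS reads per kb of CDS and 1e6 reads in young, 37.8 ± 3.53 in old and 128 ± 3.45 in ICM. In CPM it was at 216, 254 and 265 in young, at 147, 144 and 160 in old and at 482, 502 and 499 in ICM, and no condition overlapped another. ICM exceeded young by 0.99 (SE 0.07) and old by 1.60 (SE 0.07) on the log2 scale. Old cells were lower than young, with a fitted difference of -0.61 in log2 (SE 0.07, edgeR adjusted p = 1.63e-07).

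ABCC1 footprints were at 551, 371 and 332 CPM in young, at 238, 384 and 290 in old and at 951, 1083 and 433 in ICM. ICM replicate 3 fell below young replicate 1, so these groups overlapped, and without young replicate 1 they did not. The log2 change was 1.22 (SE 0.23) in ICM against young and -0.33 (SE 0.22, edgeR adjusted p = 0.249) in old against young.

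ABCC3 (MRP3), an exporter of glucuronide and bile salt conjugates, was lower in old cells too. Its mRNA was at 34.9, 32.3 and 33.5 CPM in young, at 21.5, 17.0 and 23.6 in old and at 68.3, 76.8 and 73.4 in ICM, again without overlap. The ICM against young change was 1.09 (SE 0.09), and the old against young change -0.62 (SE 0.10, edgeR adjusted p = 1.52e-05). Footprints were at 73.5, 35.8 and 36.4 CPM in young, at 22.7, 54.8 and 24.6 in old and at 93.3, 196 and 173 in ICM. The ICM libraries were the 3 highest. Young replicate 1 and old replicate 2, the libraries with the low CDS share, were the highest of their groups.

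ABCC2 (MRP2), the exporter of the hepatocyte's bile canaliculus, remained rare. Its mRNA was at 0.380, 0.176 and 0.0968 CPM in young, at 0.203, 0.495 and 0.266 in old and at 3.04, 2.55 and 3.10 in ICM, from 6, 12 and 101 reads. Only ICM stood apart, by 3.74 (SE 0.38) on the log2 scale against young, and old against young differed by 0.80 (SE 0.62), with no p given, since ABCC2 too passed the filter only through the ICM libraries. Footprints numbered 2.5, 1.33 and 5 estimated reads in young, old and ICM.

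ABCB6, a porphyrin-linked transporter reported in mitochondria and other membranes and not a conjugate exporter of the ABCC kind, was the fourth. Its mRNA (chromosome 2, 220074494 to 220083716, minus strand) was at 18.7, 19.8 and 19.3 CPM in young, at 16.7, 15.1 and 12.8 in old and at 96.9, 97.0 and 99.7 in ICM. ICM exceeded young by 2.31 (SE 0.08) on the log2 scale and was 6.08-fold above old. The fall in old cells was small, at -0.29 (SE 0.10, edgeR adjusted p = 0.0144), and was no longer called with mRNA CDS reads alone (0.0686), without young replicate 2 (0.0570) or without old replicate 3 (0.0999). Footprints were at 18.4, 19.0 and 16.9 CPM in young, at 13.1, 0 and 22.3 in old and at 120, 88.6 and 130 in ICM, a log2 change of 2.67 (SE 0.48) in ICM against young.

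**Figure D3:**
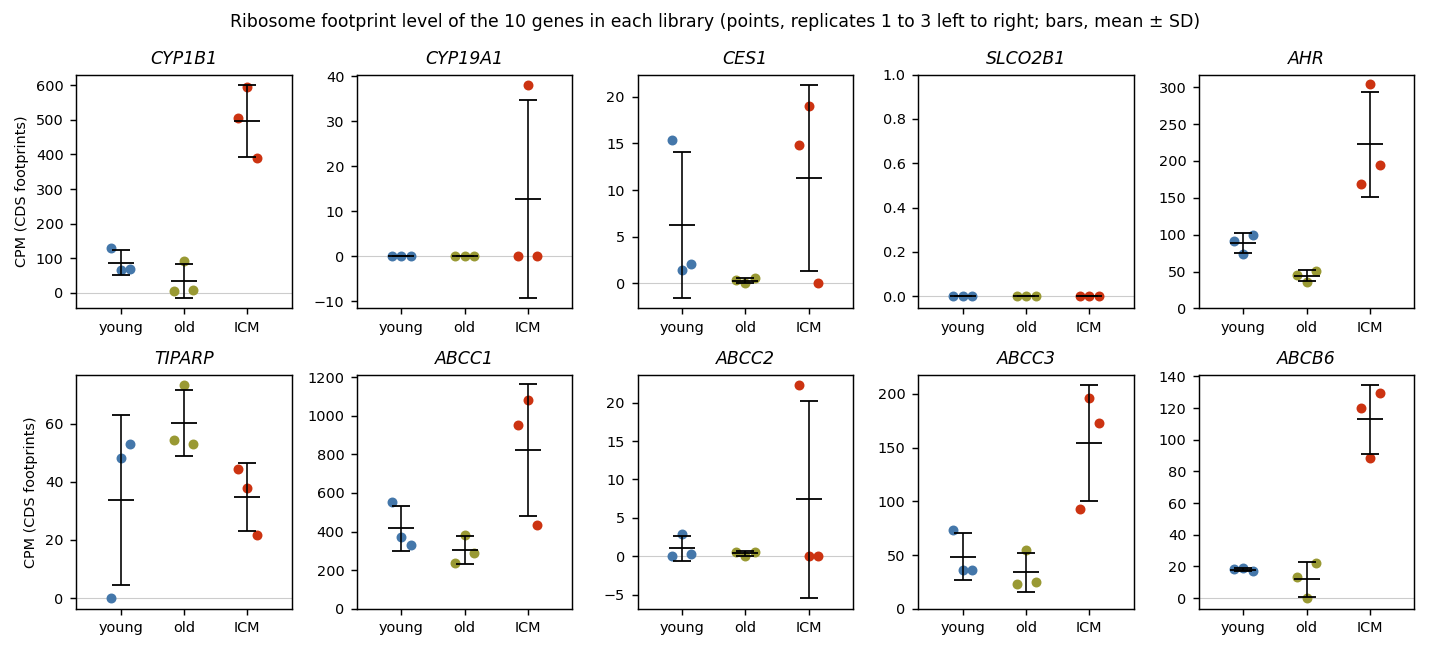
Ribo-seq level (CPM of CDS footprints, linear axes) of each gene in the 3 young, 3 old and 3 ICM libraries, with mean ± SD. ICM libraries lie above all young libraries for CYP1B1, AHR, ABCC3 and ABCB6, and SLCO2B1 is at 0 throughout.

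Counted over the 10 genes, mRNA in ICM lay above every young library for 9 and above every old library for 9, TIPARP being the exception in both. Of all 13173 genes tested, 38.2% were above young and 41.7% above old by the same rule, and nothing is read from the members' counts, since these contrasts chose them. In Ribo-seq, where 6 of the 10 passed the filter on low counts, 4 of the 10 lay above every young library (13.7% of genes tested) and 5 above every old library (11.8%), with TIPARP below every old library (11.3%). Without young replicate 1 the count against young was 5, and without old replicate 2 the count against old was also 5.

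Old against young was not used to choose the genes, although it shares the young and old libraries with the contrasts that were. In mRNA-seq SLCO2B1, CES1, CYP19A1 and ABCC2 passed the filter only through the ICM libraries, so their calls are not read. Fitted with the young and old libraries alone, 6 of the 10 were tested. Of these 5 were called, 1 higher (TIPARP) and 4 lower (CYP1B1, ABCC1, ABCC3 and ABCB6). In the fit that holds the ICM libraries too, the same 5 were called, and with SLCO2B1 (higher) and CES1 (lower) the count was 7. Of all genes tested in that fit, 66.1% were called, 32.4% higher and 33.7% lower. Without young replicate 1 and old replicate 2 together its count was 7 again, and without young replicate 2 it was 5. In Ribo-seq 2 of the 6 tested were called, both lower (CYP1B1 and AHR), against 36.3% of all genes tested (17.0% lower). Among the 6, ABCB6 and ABCC3 passed the Ribo-seq filter only with the help of the ICM libraries, and CYP1B1 and AHR did not need them. The lack of a call for ABCB6 and ABCC3 in Ribo-seq and TE is therefore not read. In TE 0 of 6 were called by edgeR, with 2 at an unadjusted p under 0.05 and 0 by DESeq2, against 1.43% of 4618 genes tested. Per the study, data on senescent cells had also been generated earlier. The labels do not say which libraries of young, old and ICM cells were made together. In the ICM contrasts as in old against young, condition and experiment therefore cannot be told apart.

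**Figure D4:**
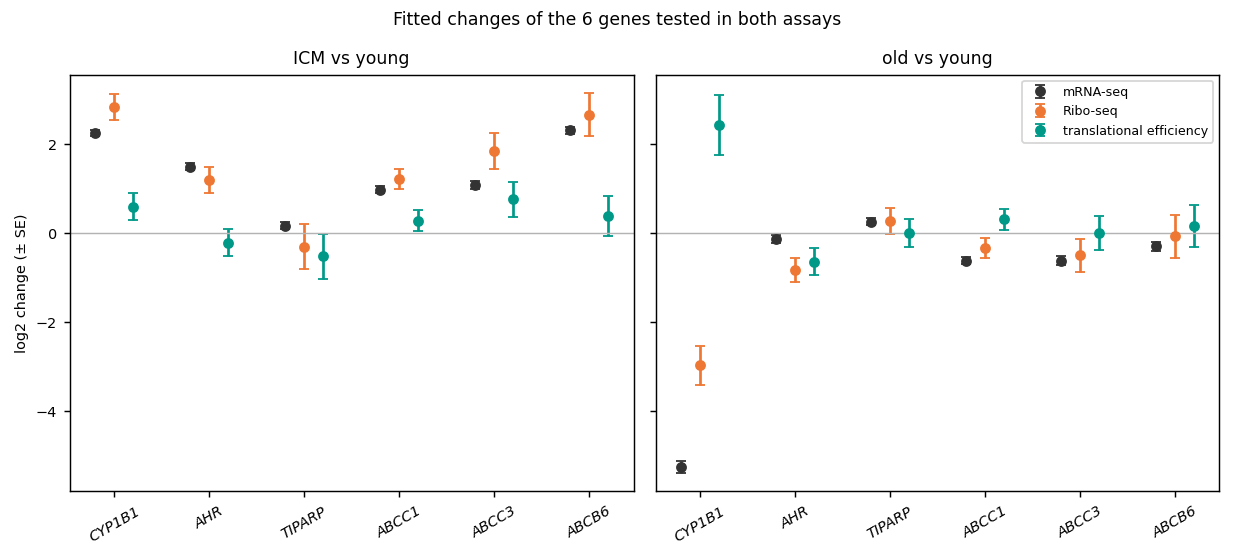
Fitted log2 changes ± SE (edgeR, n = 3 libraries per group and assay) of the 6 genes tested in mRNA-seq (black), Ribo-seq (orange) and TE (green), for ICM against young (left, descriptive) and old against young (right, tested). CYP1B1 in old cells shows -5.24 in mRNA-seq and -2.96 in Ribo-seq, with a TE change of 2.43. ABCB6 and ABCC3 passed the Ribo-seq filter only with the help of the ICM libraries.

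Per coding length in ICM cells, the mRNA order ran from ABCC1 (128 CDS reads per kb and 1e6 reads) and CYP1B1 (123 ± 7.48, SD, n = 3) through ABCB6 (56.9), AHR (34.8), TIPARP (33.0), SLCO2B1 (25.2), ABCC3 (23.1), CYP19A1 (11.9) and CES1 (8.87) to ABCC2 (0.875). The ranges of ABCC1 (125 to 132) and CYP1B1 (118 to 132) overlapped, as did those of AHR (32.8 to 36.1) and TIPARP (30.8 to 36.8) and those of SLCO2B1 (22.9 to 28.6) and ABCC3 (22.0 to 23.7). Among footprints CYP1B1 led, at 305 ± 63.4 on the same scale (SD, n = 3), with ABCC1 at 179 ± 74.8, AHR at 87.4 ± 28.2 and ABCB6 at 44.6 ± 8.51. CYP1B1 (239 to 365) lay just above the highest ABCC1 library (236).

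Across the 9 mRNA-seq libraries, TKT and CHST15 were among the genes whose log2(CPM + 1) was most like that of CYP1B1, by Pearson's r of 0.999 each. For CYP19A1 the most alike were CLU, PTGR1 and AKR1B15 (r of 0.998 to 0.999), for SLCO2B1 TMEM214, KYNU and AKR1B1 (0.999 each), and for CES1 PPIF, DPP4 and SESN3 (0.995 to 0.997). With 3 groups of 3 libraries the group means set these values, so no p is given. TKT is an enzyme of the pentose phosphate pathway, and AKR1B15 and AKR1B1 are carbonyl-reducing enzymes. The like genes differ in size of change, since PTGR1 went from 97.7 CPM in young and 101 in old to 1480 in ICM, and TMEM214 from 144 and 150 to 284.

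The other genes of the same pathways were taken from lists made with earlier results of these data known, 184 genes without the 10 members. In mRNA-seq, 119 passed the filter, and in ICM against young 92 of them were called, 71 higher and 21 lower, that is 77.3% where 71.0% of all genes tested were called, 34.9% higher and 36.1% lower. Their median log2 change was 0.50, against -0.01 over all genes. In old against young 85 were called, 41 higher and 44 lower (66.1% of all genes tested), with a median of -0.04, and in ICM against old 84, 61 higher and 23 lower (63.3%, 30.7% higher and 32.6% lower). In Ribo-seq 38 passed the filter, and 20 were called in ICM against young, 17 higher and 3 lower (26.6% of all genes tested, 13.7% higher and 12.9% lower). The corresponding Ribo-seq counts were 14 in old against young, 8 higher and 6 lower (36.3%, 19.3% higher and 17.0% lower), and 11 in ICM against old, 10 higher and 1 lower (13.4%, 5.79% higher and 7.62% lower). Since the lists were made with such results known, these counts and the p-values of listed genes below are descriptions, not independent evidence. The filter also looks at all 3 conditions, so a gene high in ICM alone can pass it. HSD11B1 passed in Ribo-seq through ICM (151 to 152 CPM), with 1.46 to 18.4 in young and 1.79 to 18.3 in old. How many other listed genes did so was not counted.

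Among 7 core genes of the AHR machinery, 0 were called higher and 4 lower in ICM against young (34.9% and 36.1% of all genes tested). ARNT2, a brain-type partner of AHR, fell by 1.03 on the log2 scale (SE 0.07, edgeR adjusted p = 1.6e-11), from 65.5 ± 3.43 to 32.7 ± 1.53 CPM (SD, n = 3), and HSP90AA1, the chaperone that holds unliganded AHR, fell by 0.63 (SE 0.06, adjusted p = 4.93e-09). In old against young 6 of the 7 were called lower and 0 higher (33.7% and 32.4% of all genes tested).

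AHR target genes were split. Of 9 listed, 4 could be tested in mRNA-seq and 3 were called higher in ICM against young (34.9% of all genes tested). CYP1A1, the classical AHR target, was at 0 in all young libraries, at 0.406, 0.0707 and 0.177 CPM in old and at 0, 0.236 and 0 in ICM. CYP1A2 did not pass 0.503 CPM in any library, and UGT1A1 and UGT1A6, which share exons with the rest of their locus, are listed at 0 throughout. NQO1, a quinone reductase that NRF2 also controls, rose by 2.16 in ICM against young (SE 0.07, edgeR adjusted p = 5.84e-18), from 353 ± 19.1 to 1604 ± 13.8 CPM (SD, n = 3), and fell by 1.83 in old (SE 0.07, adjusted p = 6.61e-16). AHRR, the AHR repressor, which stands in both lists, was at 54.2 to 59.0 CPM in young, 28.8 to 38.0 in old and 54.0 to 60.4 in ICM. SERPINB2, an inhibitor of plasminogen activators, rose in ICM by 1.84 (SE 0.10) and in old by 2.47 (SE 0.09), both past the test (adjusted p = 1.25e-13 and 1.16e-15).

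The cytochromes and steroid enzymes that could be tested were mostly higher in ICM than in young. Of 34 listed genes of P450s and their electron donors, 21 did not pass the filter. Of the 13 tested, 10 were called higher and 1 lower (34.9% and 36.1% of all genes tested). In old against young 6 were called higher and 3 lower (32.4% and 33.7% of all genes tested). In ICM against old 9 were called higher and 3 lower (30.7% and 32.6% of all genes tested). The steroid genes below stand beside the same shares. CYP2U1 rose alike in ICM (1.24, SE 0.08) and in old (1.20, SE 0.08) against young. CYP26B1, which clears retinoic acid, went from 4.28 ± 1.24 CPM in young to 19.9 ± 4.24 in old and 122 ± 4.49 in ICM, a log2 rise of 4.78 (SE 0.14, edgeR adjusted p = 2.13e-18) in ICM against young. CYP2S1 was lower in ICM by a log2 change of -0.44 (SE 0.13, adjusted p = 0.00448). Beside CYP19A1, 7 of 11 tested steroid genes were called higher and 1 lower in ICM against young, and 9 more were not tested. In old against young 5 were called higher and 2 lower, and in ICM against old 3 higher and 3 lower. HSD11B1, which regenerates active glucocorticoid, was at 3.59 ± 0.448 CPM in young, 0.504 ± 0.207 in old and 104 ± 4.29 in ICM, so that it rose in ICM (4.83, SE 0.11, adjusted p = 4.48e-20) and fell in old (-2.69, SE 0.29, adjusted p = 2.8e-08). HSD17B2, which inactivates oestradiol, was highest in old, at 19.0 ± 2.83 CPM against 1.06 ± 0.0857 in young and 4.94 ± 1.16 in ICM.

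Of 21 esterases, hydrolases and other oxidising enzymes tested, 13 were called higher and 6 lower in ICM against young, but 4 higher and 13 lower in old against young. Of all genes tested, 34.9% were called higher and 36.1% lower in ICM against young, and 32.4% and 33.7% in old against young. EPHX1, the microsomal epoxide hydrolase, rose from 44.2 ± 1.66 to 423 ± 18.7 CPM in ICM (log2 change 3.23, SE 0.07, edgeR adjusted p = 1.52e-20), with footprints at 89.6 ± 21.1 and 672 ± 227 CPM (3.19, SE 0.25, adjusted p = 3.7e-12). MAOA, an amine oxidase, rose in ICM (2.23, SE 0.14) and fell in old (-1.96, SE 0.25), both past the test (adjusted p = 1.42e-12 and 3.58e-07). Of 20 conjugating enzymes 17 were called higher and 1 lower in ICM against young, and 7 higher and 8 lower in old against young. The glutathione transferases GSTM2 (1.86, SE 0.08) and GSTM3 (1.83, SE 0.07) rose (adjusted p = 8.05e-15 and 7.48e-16). Genes of this family may share reads, which was not checked. NNMT, which methylates nicotinamide, was the one that fell, by 1.86 (SE 0.09, adjusted p = 1.61e-14).

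Transporters outside the 10 were counted in the same way, against young. Of all genes tested, 34.9% were called higher and 36.1% lower in ICM, and 32.4% and 33.7% in old. Of 11 uptake genes tested, 8 were called higher and 1 lower in ICM, and 6 higher and 2 lower in old. SLC22A18 rose by 1.56 (SE 0.12, edgeR adjusted p = 6.55e-11) in ICM. Of 15 other ABC transporters, 9 were called higher and 3 lower in ICM, led by ABCG2, the breast cancer resistance protein, from 3.07 ± 0.333 to 20.6 ± 2.38 CPM (log2 change 2.69, SE 0.15, adjusted p = 3.31e-13). Mitochondrial ABCB10 fell by 0.34 (SE 0.09, adjusted p = 0.00254). Of the 11 relatives of TIPARP, 0 were called higher and 4 lower in ICM, among them PARP10 (-0.54, SE 0.14, adjusted p = 0.00163). That is 36.4% lower, about the share of all genes tested (36.1%).

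**Figure D5:**
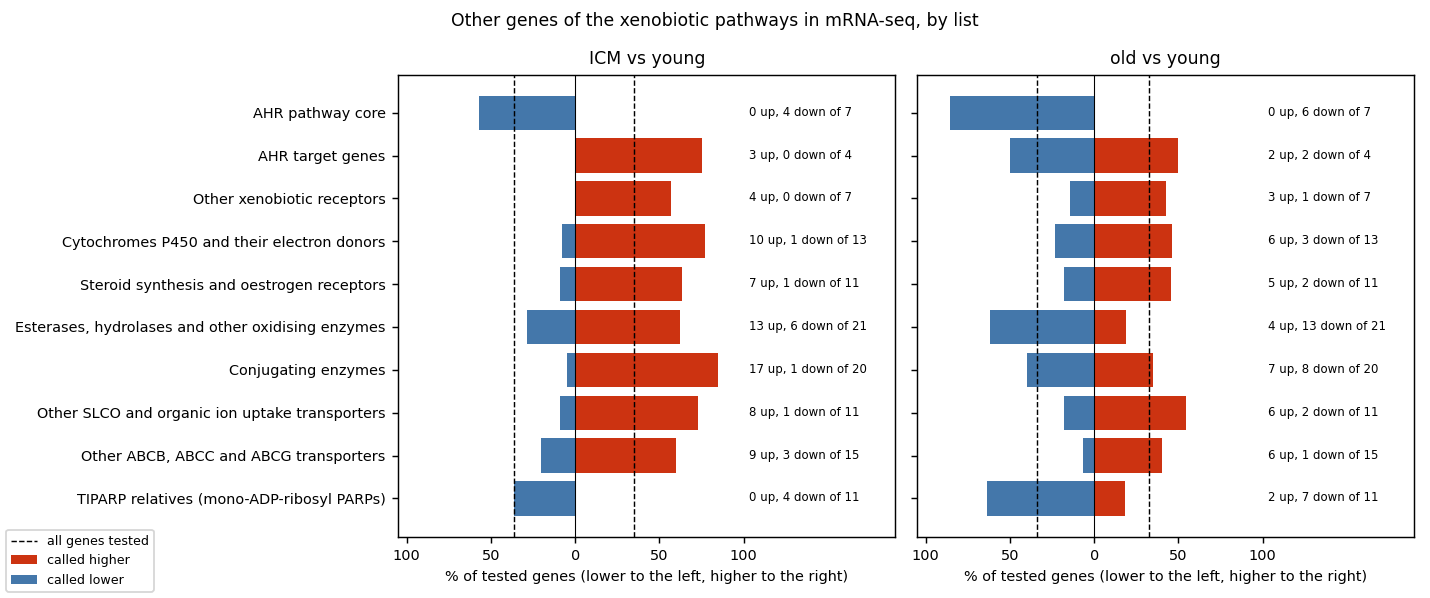
Percent of the tested genes of each list called higher (red, right) or lower (blue, left) in mRNA-seq, in ICM against young and old against young, with dashed lines for all genes tested (34.9% and 36.1%, 32.4% and 33.7%). Conjugating enzymes show 17 higher and 1 lower of 20 in ICM, and core AHR genes 0 higher and 4 lower of 7.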

How the data were processed

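Ribo-seq and mRNA-seq of IMR90 cells gave 18 libraries, grouped by their titles (3 per group), where the series' design text gives other sample numbers. For each gene symbol the authors deposited estimated counts by region (5′ UTR, CDS, 3′ UTR) without scaling to depth. Between 14.1% and 23.2% of the non-zero values were not whole. The submitters' processing notes name GRCh37, STAR 2.6.0c, featureCounts, DESeq2 and deepTools, without roles. The annotation release and the placing of multiply mapped reads are not given in the sources used here. The methods describe 3 independent replicas, each lysed with cycloheximide and divided between the assays, while the labels name Trizol.

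Estimated counts were rounded. The 9 libraries of an assay entered one fit in edgeR 4.0.16 under R 4.3.3 (glmQLFit and glmQLFTest after TMM and filterByExpr, two-sided), with Benjamini-Hochberg adjustment over all genes tested and an adjusted p under 0.05. TE was the interaction of assay and condition over 18 libraries with the lysate as a block. SE came from the F statistic. DESeq2 1.42.0 and other alternatives are given in the closing section. Ratios of pooled reads carry exact binomial 95% intervals, with a floor of 3 reads. Gene coordinates are from GENCODE on GRCh37. The fits were tested on simulated data.

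The members and lists were chosen with earlier results of these data known. Besides the 10 members, the text names from each list up to 2 rises and 2 falls in ICM against young, the largest calls whose replicates did not overlap and whose mean level reached 5 CPM. AHRR, CYP1A1, CYP1A2, UGT1A1 and UGT1A6 were named after their values were seen. Not every gene that these rules pick is reported here.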

Additional observations from a re-analysis of the deposited data

Results flagged for a closer look

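Footprints in the 5′ UTR of CYP1B1, a region that the Ribo-seq comparisons do not use, were more frequent in ICM than in young cells. There were 13 in ICM (8, 5 and 0 by replicate) and 6 in young (0, 1 and 5), a pooled ratio of 15.2 per CDS read of the library (exact binomial 95% interval 5.37 to 48.6, counting error only), and 1 in old. CDS footprints of the gene had a pooled ratio of 7.39 (5.96 to 9.17). The 5′ UTR interval covers this CDS ratio, so no 5′ UTR change beyond that of the CDS is shown. With 3 libraries per group and 0 reads in ICM replicate 3, the difference was not tested between replicates, and its cause was not tested. In AHR the 5′ UTR footprints went the other way, with 33 in young, 9 in old and 1 in ICM. The pooled AHR ratio of ICM to young was 0.212 (0.00521 to 1.27).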

How the results depend on the processing

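In mRNA-seq, old against young, between 5 and 7 genes were called under the alternatives, against 7, with 6 tested and 5 called with only the compared conditions, and 8 tested and 6 called with a mean of at least 50 counts. The 7 include CES1 and SLCO2B1, whose calls are not read. In Ribo-seq 2 were called, but 0 with DESeq2, 0 with a mean of at least 50 counts (1 gene left to test), 0 with thinned Ribo-seq, 1 with a replicate block, and 1 to 2 when 1 library was left out. In TE 0 were called, but 1 with no filter, 1 with only the compared conditions, 2 with no lysate block, 1 at an adjusted p under 0.15, and 0 to 1 when 1 library was left out. CYP1B1 was gained in the fits named first (adjusted p = 0.0311, 0.00814 and 0.0163), and with no lysate block AHR was gained too (-0.73, adjusted p = 0.0406). Between conditions the numbers do not pair the samples: same-numbered libraries deviated from their group means with r of -0.249 to 0.238 in mRNA-seq and 0.00266 to 0.0433 in Ribo-seq. Pairing between the assays, which the lysate block takes from the numbers, was not checked. Without that block 409 of all genes were called in TE, old against young, in place of 66.

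For the other pathway genes, called counts in mRNA-seq stayed within 1.5 times the main count except for 51 in place of 85 in old against young with an absolute log2 change over 0.6. In Ribo-seq, ICM against young gave 13 with a mean of at least 50 counts and 9 thinned, in place of 20, and 12 (without young replicate 3) to 25 with 1 library left out. Old against young gave 7 with DESeq2, 22 with no filter, 27 with only the compared conditions, 7 with a replicate block, 4 thinned, 22 without young replicate 1 and old replicate 2, and 22 at an adjusted p under 0.15, in place of 14, and 5 (without young replicate 2 or 3) to 23 (without ICM replicate 1 or 3) with 1 library left out. ICM against old gave 6 thinned, in place of 11, and 7 (without old replicate 1) to 13 with 1 left out.

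In old against young, the changes that reversed were not called. CYP19A1 in mRNA-seq turned from -0.14 to 0.69 with CDS reads alone, and ran from -0.53 to 0.27 with 1 library left out. TIPARP in TE turned from 0.0088 to -0.035 with RLE scaling, -0.0096 with only the compared conditions, -0.019 with no lysate block, -0.074 with mRNA CDS reads and -0.064 without young replicate 1 and old replicate 2, and ran from -0.12 to 0.053 with 1 left out. ABCC3 in TE turned from 0.0033 to -0.041 with RLE scaling, -0.047 with CDS reads and -0.0060 without both of those libraries, and ran from -0.14 to 0.091. ABCB6 in Ribo-seq turned from -0.064 to 0.012 without both, and ran from -0.49 to 0.16 with 1 left out, and in TE it ran from -0.33 to 0.70. In the ICM contrasts, which carry no test, some TE changes also turned sign. CYP1B1 in ICM against young turned from 0.60 to -0.25 with thinned Ribo-seq, ABCC1 in ICM against young from 0.28 to -0.075 thinned and -0.038 without young replicate 3, and ABCB6 in ICM against old from 0.21 to -0.38 without old replicate 1. The causes were not tested. Ribo-seq depth limits most of these values, since ICM replicate 3 had 46239 CDS reads.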
